A study of Homo sapiens with 14 samples.

Results

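RiboLace libraries of OCI-AML2 cells that carry RUNX1 R174* on 1 of 2 alleles were compared with RiboLace libraries of their parent line. OCI-AML2 is an established human acute myeloid leukaemia line, and R174* puts a stop codon in place of an arginine codon of the transcription factor RUNX1. RiboLace is designed to capture active ribosomes, and the RNA they hold, with a puromycin analogue. These libraries also held nuclear and small RNAs that do not code for protein, as described further on. The members were chosen by their labels: 2 RiboLace libraries of the mutant line F3 (R174*/wt) and 2 of the wild-type parent (wt/wt), 4 of the 14 libraries of the series. All 4 are labelled as untreated. For the same lines, 2 total RNA libraries of mutant F3 (labelled as 8 h controls, with time 0 in another label) and 2 of the wild-type parent (labelled as untreated) were set beside them. F3 is the only mutant line with RiboLace libraries, so effects of the mutation and features of this line cannot be told apart. The labels do not say whether replicates came from separate cultures, so p-values measure the spread between these libraries, which may be technical.

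RUNX1 binds DNA with its partner CBFB and controls genes of blood stem cells and of myeloid maturation. Truncated RUNX1 is a recurrent lesion of acute myeloid leukaemia. The amount of an RNA on ribosomes depends on how much of it the cell holds and on how much of that is being translated. A RiboLace level alone cannot separate these, nor tell them from RNA captured without being translated.

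The mutant F3 RiboLace libraries held 1192811 and 465052 counts, against 2034796 and 1054581 in wild type, while the total RNA libraries held 19296906 to 21334260. Mutant F3 replicate 2 was the shallowest, with 7208 genes of at least 10 reads, against 9837 in mutant F3 replicate 1 and 10854 and 9536 in wild type. Replicates differed by more than sampling noise (chi-square over degrees of freedom 3.86 for mutant F3 and 7.39 for wild type). Reads were found for 14 of 14 myeloid leukaemia markers, with 2511 and 2400 CPM (counts per 1000000, here of the library's total) in mutant F3 against 3920 and 3776 in wild type, and ANPEP had a single read. Markers of erythroid cells summed to 4.30 to 6.71 CPM in mutant F3 and 8.85 to 13.3 in wild type, with the haemoglobin genes HBA1, HBA2 and HBB at 0 reads. Megakaryocyte and platelet markers summed to 42.8 to 43.0 against 29.4 to 38.8, lymphoid markers to 49.5 to 53.7 against 33.2 to 37.8, and adherent and stromal markers to 173.5 to 247.3 against 146 to 165, where VIM, which myeloid cells also express, gave most reads.

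Per-gene counts do not show which allele was read, so they do not check the R174* label. RUNX1 itself had 144 and 142 CPM in mutant F3, against 145 and 168 CPM in wild type (here and below scaled by TMM within an assay's libraries). The mutant libraries lay just under the wild-type ones, and the difference did not pass the test (log2 fold change -0.13 ± 0.26 SE, adjusted p = 0.796). With each library's trend along exon length removed, as described further on, it was -0.59 (adjusted p = 0.14). Its partner CBFB had 77.0 and 74.0 CPM in mutant F3, against 83.1 and 101 CPM in wild type, also short of the threshold (log2 fold change -0.27 ± 0.28 SE, adjusted p = 0.557). In total RNA the RUNX1 log2 fold change was -0.74 (adjusted p = 7.74e-06), and the test of the difference between both assays gave 0.57 ± 0.24 SE (adjusted p = 0.225).

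Among 9805 genes tested in RiboLace with edgeR's quasi-likelihood test, 1154 passed an adjusted p of 0.05 (11.8%), of which 606 were higher (6.18%) and 548 lower (5.59%) in mutant F3. At an unadjusted p under 0.05 there were 2689 genes. CPM values of mutant F3 and wild type did not overlap for 5679 of the 9805 (57.9%), so a lack of overlap alone says little about a gene. Of the 1154, 881 differed by at least 2-fold. Among called protein-coding genes without overlap and with a mean CPM of at least 20, the largest rises were INO80C, KIF5C, MGLL and KCNH2. ELANE, BPI and GATA2 were also among the 12 largest rises. The 12 largest falls held LST1, CD53, LYZ and S100A9, and also SORT1, ORM1, HSPA1B and SERPINH1. Fits that leave a library out keep a single library in its group, so a call lost there may reflect lost power. Both counts depend on single libraries: without mutant F3 replicate 2, 141 genes were higher and 106 lower, and without wild-type replicate 1 they were 184 and 154. Without wild-type replicate 2, 841 were higher and 970 lower. Without mutant F3 replicate 1, 350 were higher and 224 lower.

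**Figure D1:**
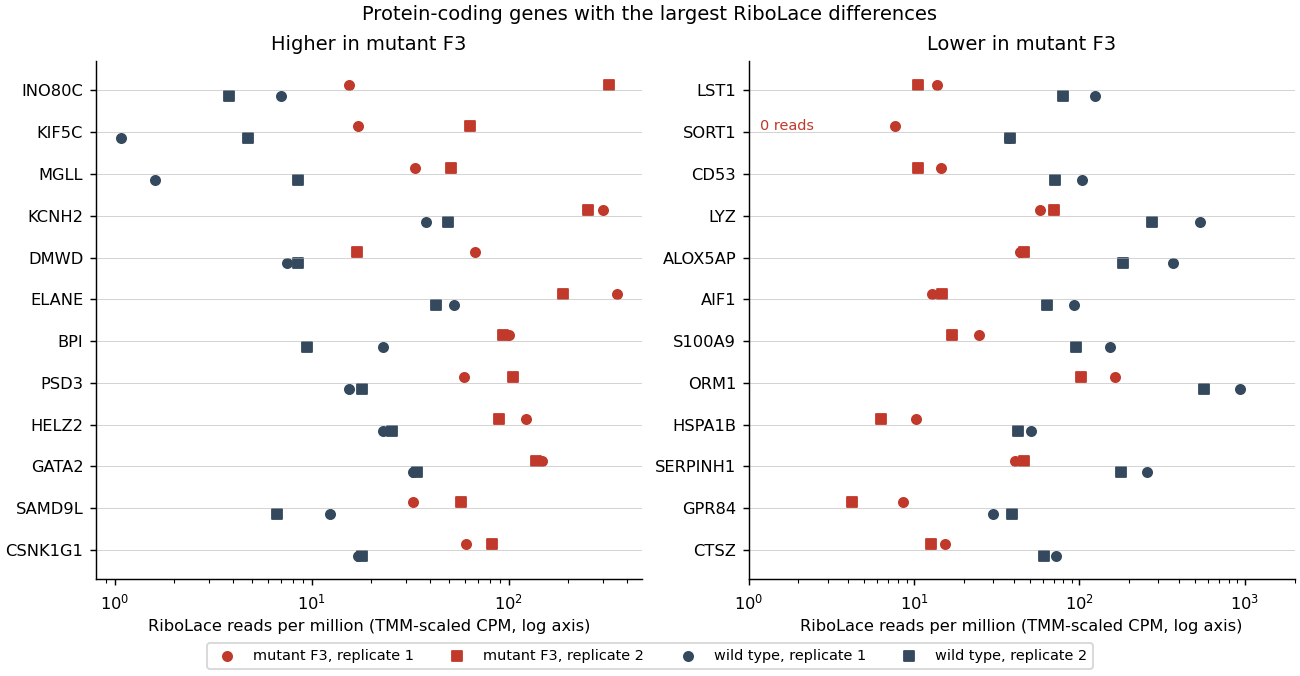
RiboLace levels of the 12 protein-coding genes with the largest rise (left) and the 12 with the largest fall (right), as TMM-scaled CPM on a log axis, 1 point per library. Mutant F3 libraries are red and wild-type libraries dark blue; the groups do not overlap for any gene drawn, as the rule for choosing them required, and INO80C in mutant F3 replicate 2 (324 CPM) stands far from replicate 1 (15.4 CPM).

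Genes of neutrophil granules moved in both directions. Of 15 granule protein genes tested, 4 rose and 4 fell, with a median log2 fold change of 0.42 beside -0.01 over all genes tested. ELANE, which encodes neutrophil elastase (chr19:851014-856247 in GRCh38), had 355 and 188 CPM in mutant F3, against 52.5 and 42.7 CPM in wild type. Both mutant libraries were high and both wild-type libraries low, a 5.75-fold higher level (log2 fold change 2.52 ± 0.30 SE, adjusted p = 1.96e-06). PRTN3, the gene of proteinase 3 in the same granules, had 904 and 594 CPM in mutant F3, against 296 and 194 CPM in wild type. The groups did not overlap, and PRTN3 rose in mutant F3 (log2 fold change 1.61 ± 0.31 SE, adjusted p = 0.000943). BPI, the bactericidal permeability-increasing protein, had 100 and 93.1 CPM in mutant F3, against 23.0 and 9.49 CPM in wild type and rose likewise (log2 fold change 2.48 ± 0.34 SE, adjusted p = 9.87e-06). MPO, the myeloperoxidase gene of primary granules, had 38.5 and 27.5 CPM in mutant F3, against 28.4 and 21.8 CPM in wild type, and its log2 fold change of 0.42 did not pass (adjusted p = 0.448).

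LYZ, which encodes lysozyme and is made through monocyte maturation, went the other way. It had 58.1 and 69.8 CPM in mutant F3, against 533 and 276 CPM in wild type. The lower wild-type library still held several times the reads of either mutant library, and LYZ was 6.44-fold lower in mutant F3 (log2 fold change -2.69 ± 0.32 SE, adjusted p = 2.07e-06). RETN, the gene of the secreted protein resistin, had 93.2 and 59.2 CPM in mutant F3, against 245 and 201 CPM in wild type and fell (log2 fold change -1.50 ± 0.28 SE, adjusted p = 0.000695). Its call was lost without mutant F3 replicate 2, at a log2 fold change of -1.26 (adjusted p = 0.0737). With that library left out, 3 granule genes rose and 1 fell of 16 tested.

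The list of monocyte maturation genes has 41 members, of which 37 had reads and 21 were tested. Of these 21, 11 fell and 0 rose, with a median of -0.97 and 4 above 0. The 3 tested members with at most 3 reads in a group passed the filter on low counts through the other group alone. A difference in them is therefore favoured in advance. The summed level of all 41 members overlapped, at 2053 and 2804 CPM of the library's total in mutant F3 and 2749 and 2502 CPM in wild type. S100A8 and S100A9 encode the subunits of calprotectin, an abundant protein of monocytes and neutrophils. S100A9 had 24.8 and 16.9 CPM in mutant F3, against 154 and 94.9 CPM in wild type, both mutant libraries low and both wild-type libraries high (log2 fold change -2.51 ± 0.34 SE, adjusted p = 7.53e-06). For S100A8, the files list 0 reads in both mutant libraries and 27 and 11 reads in wild type, at least 7.13-fold lower in mutant F3 against a floor of 3 reads over the group. CSF1R, the receptor for macrophage colony-stimulating factor and a known RUNX1 target, had 1 and 0 reads in mutant F3 against 56 and 16 in wild type. That is a mutant to wild-type ratio of 0.0247, with an exact 95% interval of 0.000617 to 0.142 that covers counting error only.

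LST1, a leukocyte-specific membrane protein gene, had 13.7 and 10.6 CPM in mutant F3, against 124 and 79.7 CPM in wild type. Both mutant libraries were low, and LST1 had the largest fall under the naming rule (log2 fold change -3.01 ± 0.37 SE, adjusted p = 2.57e-06). AIF1, an actin-binding protein of macrophages, had 12.8 and 14.8 CPM in mutant F3, against 93.2 and 63.6 CPM in wild type, again without overlap (log2 fold change -2.55 ± 0.37 SE, adjusted p = 2.54e-05). Of the 11 falls of the monocyte list, 9 were called without mutant F3 replicate 2 (median -1.52 over 26 tested) and 9 with the exon length trend removed (median -0.74). DESeq2 called 5 lower of the 13 members to which it gave an adjusted p. The median stayed at -0.97 with its 3 members of few reads set at the floor. In total RNA, 14 of 32 tested fell and 8 rose, where 22.7% of 13565 genes passed, 1582 of them higher and 1498 lower.

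Further products of myeloid cells were among the 12 largest falls. CD53, a tetraspanin of leukocytes, had 14.5 and 10.6 CPM in mutant F3, against 103 and 71.2 CPM in wild type (log2 fold change -2.73 ± 0.37 SE, adjusted p = 7.54e-06). ALOX5AP, which helps to make leukotrienes, had 43.6 and 46.5 CPM in mutant F3, against 367 and 184 CPM in wild type (log2 fold change -2.63 ± 0.32 SE, adjusted p = 2.57e-06). In both, each mutant library was far below each wild-type library. CTSZ, a lysosomal cathepsin, had 15.4 and 12.7 CPM in mutant F3, against 72.3 and 60.8 CPM in wild type, and it was 4.60-fold lower in mutant F3 (adjusted p = 0.000136). GPR84, a receptor for medium-chain fatty acids on myeloid cells, had 8.55 and 4.23 CPM in mutant F3, against 30.0 and 38.9 CPM in wild type, with the mutant libraries low on few reads (adjusted p = 0.00188). SORT1, the sorting receptor sortilin, had 9 and 0 reads in mutant F3 against 70 and 40 in wild type (log2 fold change -2.80 ± 0.51 SE, adjusted p = 0.000474). ORM1, which encodes the plasma protein orosomucoid, had 165 and 102 CPM in mutant F3, against 939 and 567 CPM in wild type, and the highest mutant library was below the lowest wild-type one (log2 fold change -2.47 ± 0.33 SE, adjusted p = 5.77e-06). Its near-identical neighbour ORM2 had 1 and 0 reads against 36 and 20, and reads that match both copies could have been split between them.

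KCNH2, a voltage-gated potassium channel, showed the rise with the smallest adjusted p among the 24 protein-coding genes drawn. It had 303 and 254 CPM in mutant F3, against 38.0 and 49.4 CPM in wild type, a 6.47-fold higher level with replicates close together (log2 fold change 2.69 ± 0.28 SE, adjusted p = 5.1e-07). MGLL, which breaks down monoacylglycerols, had 33.3 and 50.8 CPM in mutant F3, against 1.61 and 8.54 CPM in wild type (log2 fold change 3.20 ± 0.52 SE, adjusted p = 0.000132). It overlaps SEC61A1 on the opposite strand, and the counting is not known to use strand. DMWD, a WD-repeat protein gene, had 67.5 and 16.9 CPM in mutant F3, against 7.50 and 8.54 CPM in wild type, where mutant F3 replicate 1 was far above replicate 2 and both were above wild type (adjusted p = 0.0003). PSD3, an exchange factor for ARF6, had 59.0 and 106 CPM in mutant F3, against 15.5 and 18.0 CPM in wild type (adjusted p = 6.62e-05), and CSNK1G1, a casein kinase gene, had 60.7 and 82.5 CPM in mutant F3, against 17.1 and 18.0 CPM in wild type (adjusted p = 0.00019), both without overlap. The largest protein-coding rises named, INO80C and KIF5C, were each highest in mutant F3 replicate 2. INO80C, a subunit of the INO80 chromatin remodeller, had 15.4 and 324 CPM in mutant F3, against 6.97 and 3.80 CPM in wild type, and KIF5C, a kinesin heavy chain, had 17.1 and 63.5 CPM in mutant F3, against 1.07 and 4.75 CPM in wild type. Without that library their log2 fold changes were 1.43 (adjusted p = 0.358) and 2.72 (adjusted p = 0.0842), beside 4.72 and 3.79 with it.

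Of 31 haematopoietic transcription factors tested, 5 rose and 0 fell, with a median of 0.15. GATA2, a zinc-finger factor of blood stem and progenitor cells (chr3:128479427-128493185 in GRCh38), had 147 and 137 CPM in mutant F3, against 32.7 and 34.2 CPM in wild type. The replicates were close together and GATA2 was 4.27-fold higher in mutant F3 (log2 fold change 2.09 ± 0.28 SE, adjusted p = 7.54e-06). IKZF3, a lymphoid zinc-finger factor, had 18.8 and 31.7 CPM in mutant F3, against 3.22 and 3.80 CPM in wild type, all low levels, with the mutant libraries above wild type (log2 fold change 2.75 ± 0.56 SE, adjusted p = 0.0017). ZEB2, PAX5 and ETV6 rose by 1.06, 1.08 and 0.84 on the log2 scale (adjusted p = 0.00898, 0.0426 and 0.0464), and all 3 calls were lost in both other fits. Their log2 fold changes were 1.05, 1.20 and 0.68 without mutant F3 replicate 2 (adjusted p = 0.131, 0.0887 and 0.383), and 0.45, 0.85 and 0.71 with the exon length trend removed (adjusted p = 0.294, 0.136 and 0.0834). With that library left out, 1 of 31 rose, and IKZF3 gave an adjusted p of 0.0828.

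SPI1, the myeloid factor PU.1, had 249.7 and 190.4 CPM in mutant F3, against 355 and 341 CPM in wild type. Both mutant libraries were lower, but the log2 fold change of -0.65 did not pass (adjusted p = 0.112). CEBPA, a factor of granulocyte maturation, had 324 and 239 CPM in mutant F3, against 285 and 406 CPM in wild type, with overlapping groups (log2 fold change of -0.28, adjusted p = 0.549), and its sign turned with the length trend removed (0.06). MYC had 1424 and 1199 CPM in mutant F3, against 1213 and 1305 CPM in wild type, which also overlapped (log2 fold change 0.06, adjusted p = 0.931), and MYB had 347 and 347 CPM in mutant F3, against 253 and 254 CPM in wild type (a log2 change of 0.45, adjusted p = 0.276). The sign of MYC was negative without the filter on low counts (-0.03), after thinning (-0.01) and without mutant F3 replicate 1 (-0.07).

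Of 27 genes tested from a list of genes regulated by RUNX1, 6 rose and 1 fell, with a median of 0.22. CDK6, the kinase that drives entry into the cell cycle, had 623 and 909.5 CPM in mutant F3, against 226 and 298 CPM in wild type. Both mutant libraries were high (log2 fold change 1.55 ± 0.30 SE, adjusted p = 0.00121). CCND2, a D-type cyclin and partner of CDK6, had 149.6 and 154 CPM in mutant F3, against 42.9 and 68.3 CPM in wild type and rose as well (log2 fold change 1.48 ± 0.28 SE, adjusted p = 0.000922). The other members that rose were ELANE, PRTN3, BCL2 and ETV6, and the member that fell was CSF1R. When mutant F3 replicate 2 was left out, 3 rose and 1 fell of 29 tested, CDK6 gave 1.25 (adjusted p = 0.0706) and CCND2 gave 1.45 (adjusted p = 0.00495). CDK6 had a total RNA log2 fold change of 0.22 (adjusted p = 0.16), and its RiboLace change exceeded the total RNA change by 1.26 ± 0.28 SE (adjusted p = 0.0297).

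The BCL2 family sets the threshold for apoptosis, and inhibitors of BCL2 itself are used against this leukaemia. Of 13 members tested, 3 rose and 1 fell, with a median of 0.49. BCL2 had 296 and 368 CPM in mutant F3, against 160.2 and 209.8 CPM in wild type. Both mutant libraries lay above both wild-type libraries, and the rise passed narrowly (log2 fold change 0.84 ± 0.27 SE, adjusted p = 0.0402). The call was lost without mutant F3 replicate 2 (0.68, adjusted p = 0.405) and with the length trend removed (0.48, adjusted p = 0.26). BCL2 in total RNA gave -0.09 (adjusted p = 0.567), and the difference between assays was 0.87 ± 0.26 SE (adjusted p = 0.092).

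BCL2L11, the pro-apoptotic BIM, had 136 and 184 CPM in mutant F3, against 70.7 and 84.5 CPM in wild type (log2 fold change 1.03 ± 0.27 SE, adjusted p = 0.0122), and BCL2L2, a pro-survival relative, had 18.0 and 29.6 CPM in mutant F3, against 3.22 and 11.4 CPM in wild type (log2 fold change 1.76 ± 0.55 SE, adjusted p = 0.0322). Mutant libraries were above wild type in both, and both calls were lost without mutant F3 replicate 2, at 0.81 (adjusted p = 0.236) and 1.44 (adjusted p = 0.28), when 0 members rose and 1 fell of 14 tested. BCL2A1, a pro-survival member of myeloid cells, had 5 and 0 reads in mutant F3 against 62 and 14 in wild type and fell (log2 fold change -2.99 ± 0.66 SE, adjusted p = 0.00354). MCL1 had 165 and 173 CPM in mutant F3, against 118 and 151 CPM in wild type and BCL2L1 had 18.0 and 19.0 CPM in mutant F3, against 9.11 and 16.1 CPM in wild type. Their log2 fold changes of 0.34 and 0.60 did not pass (adjusted p = 0.423 and 0.43).

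Interferon-stimulated genes, which are induced through type I interferon signalling, numbered 38 among those tested, of which 11 rose and 1 fell, with a median of 0.54. OAS2, a sensor of double-stranded RNA, had 77.8 and 102 CPM in mutant F3, against 43.9 and 32.3 CPM in wild type, without overlap (log2 fold change 1.18 ± 0.30 SE, adjusted p = 0.0107). SAMD9L, an antiviral and growth-restraining protein, had 32.5 and 57.1 CPM in mutant F3, against 12.3 and 6.64 CPM in wild type (log2 fold change 2.06 ± 0.41 SE, adjusted p = 0.00146), and HELZ2, an interferon-induced helicase outside the list, had 122 and 88.8 CPM in mutant F3, against 23.0 and 25.6 CPM in wild type (log2 fold change 2.15 ± 0.31 SE, adjusted p = 1.98e-05). IFI44 and OASL rose by 2.23 and 2.42 on the log2 scale from few reads (adjusted p = 0.00624 and 0.00642). Without mutant F3 replicate 2, 1 rose and 1 fell of 43 tested (median 0.51). DESeq2 called 1 higher and 0 lower of the 15 members to which it gave an adjusted p. In total RNA 49 of 57 rose and 1 fell, beside 11.7% higher over all 13565 genes tested there. The RiboLace and total RNA changes of OAS2 were not called apart, at -0.67 ± 0.27 SE (adjusted p = 0.215).

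MHC class II genes present antigen to T cells, and most had too few RiboLace reads for a test. Of 16 members, 14 had reads, 4 were tested and 0 passed. HLA-DRA, the class II alpha chain, had 29.9 and 14.8 CPM in mutant F3, against 13.9 and 8.54 CPM in wild type, with the mutant libraries higher but short of the threshold (adjusted p = 0.124). With the length trend removed HLA-DRA passed (log2 fold change 1.48, adjusted p = 0.0315), as 1 of the 4. CD74, the invariant chain, had 221 and 186 CPM in mutant F3, against 354 and 276 CPM in wild type, with the mutant libraries lower and again short of the threshold (adjusted p = 0.125). In total RNA both rose, by 2.88 (adjusted p = 2.96e-14) and 0.60 (adjusted p = 6.61e-05). Their RiboLace changes were lower than their total RNA changes by log2 differences of -1.85 ± 0.43 SE (adjusted p = 0.0342) and -1.28 ± 0.26 SE (adjusted p = 0.0183), in a test where 1.01% of 15338 genes were called lower and 0.482% higher.

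Leukocytes hold to vessels and tissue through integrins and other adhesion molecules. Of 14 adhesion molecules and integrins tested, 5 fell and 0 rose, with a median of -0.63 and 2 above 0. ITGB2, the beta chain shared by the leukocyte integrins, had 34.2 and 38.1 CPM in mutant F3, against 153 and 135 CPM in wild type. Both mutant libraries were low (log2 fold change -2.01 ± 0.30 SE, adjusted p = 2.83e-05). ITGAL, the alpha chain of LFA-1, had 191 and 125 CPM in mutant F3, against 357 and 305 CPM in wild type (log2 fold change -1.04 ± 0.28 SE, adjusted p = 0.0135). The chemokine receptor gene CXCR4 and the CD45 gene PTPRC fell by 1.19 and 1.03 on the log2 scale (adjusted p = 0.00801 and 0.0237). Leaving out mutant F3 replicate 2, 1 of 15 fell, which was ITGB2 (-2.07, adjusted p = 0.000326). Total RNA values of ITGB2 were 122 and 109 CPM in mutant F3, against 117 and 117 CPM in wild type, and its log2 fold change there was -0.02 (adjusted p = 0.931). The difference between its RiboLace and total RNA changes was -2.06 ± 0.27 SE (adjusted p = 0.000607).

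Several lists of protein synthesis and energy genes held falls and no rises. Of 78 cytosolic ribosomal protein genes tested, 16 fell and 0 rose, with a median of -0.70, and 75 of the 78 were below 0. RPL32 had 259.9 and 231 CPM in mutant F3, against 763 and 482 CPM in wild type, with both mutant libraries low (log2 fold change -1.34 ± 0.30 SE, adjusted p = 0.00368). Of 75 mitochondrial ribosomal protein genes, 10 fell and 0 rose (median -0.59). Of 72 nuclear genes of oxidative phosphorylation, 26 fell and 0 rose (median -0.80). COX7B, a subunit of cytochrome c oxidase, had 54.7 and 31.7 CPM in mutant F3, against 169 and 91.1 CPM in wild type (log2 fold change -1.52 ± 0.32 SE, adjusted p = 0.00207). Of 43 proteasome genes, 7 fell and 0 rose (median -0.67), with POMP, which helps to assemble the proteasome, at 42.8 and 44.4 CPM in mutant F3, against 128 and 71.2 CPM in wild type (log2 fold change -1.21 ± 0.31 SE, adjusted p = 0.0114). Among 52 translation factors, EIF4G3 rose (log2 fold change 0.86 ± 0.26 SE, adjusted p = 0.027) and EIF3K fell (log2 fold change -0.79 ± 0.27 SE, adjusted p = 0.0482), and 0 passed either without mutant F3 replicate 2 or with the length trend removed. The 13 genes of the mitochondrial genome had 0 calls in either direction (median -0.02).

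The counts of falls differed between fits more than the medians did. Without mutant F3 replicate 2, 0 of 81 cytosolic ribosomal protein genes, 0 of 75 mitochondrial ones, 1 of 73 oxidative phosphorylation genes and 0 of 43 proteasome genes fell, although the medians stayed at -0.60, -0.53, -0.71 and -0.56. With the length trend removed, 9, 2, 9 and 3 fell, at medians of -0.46, -0.30, -0.61 and -0.50. Of these, 6, 1, 6 and 1 were among the falls of the test that kept the trend. DESeq2 called 21 of 70 cytosolic, 0 of 43 mitochondrial, 6 of 58 oxidative phosphorylation and 1 of 35 proteasome genes lower, among those to which it gave an adjusted p. Of its 21 cytosolic falls, 12 were also called lower by edgeR. In total RNA the median of the cytosolic list was 0.02, and 3 of 84 fell and 0 rose. The RiboLace and total RNA changes of RPL32 differed by -1.43 ± 0.30 SE (adjusted p = 0.0222).

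Histones package DNA, and their short messages are made in step with DNA replication. Of 42 core and linker histone genes tested, 38 fell and 0 rose, all 42 were below 0, and the median was -1.29. HIST1H2AI, an H2A gene, had 106 and 76.1 CPM in mutant F3, against 359 and 326 CPM in wild type. Both mutant libraries held less than the lower wild-type library (log2 fold change -1.88 ± 0.28 SE, adjusted p = 3.72e-05). HIST2H2AC, another H2A gene, had 78.7 and 78.3 CPM in mutant F3, against 274 and 213 CPM in wild type (log2 fold change -1.63 ± 0.28 SE, adjusted p = 0.000199). All histone genes of the list took 0.884% and 0.662% of counts in mutant F3, against 1.94% and 1.70% in wild type. With the length trend removed 33 fell, and without mutant F3 replicate 2, 6 of 43 fell (median -1.12). Histone genes are near-identical copies, so reads may have been split between them. In total RNA 5 of 31 tested rose and 1 fell, to be read beside 11.7% higher over all 13565 genes tested there.

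Of 30 heat shock genes tested, 10 fell and 0 rose (median -0.64). HSPA1B, an inducible HSP70 with a near-identical copy, HSPA1A, had 10.3 and 6.35 CPM in mutant F3, against 50.9 and 42.7 CPM in wild type, on 12 and 3 reads in mutant F3 (log2 fold change -2.38 ± 0.41 SE, adjusted p = 0.000252). BAG3, a co-chaperone of HSP70, had 14.5 and 14.8 CPM in mutant F3, against 52.0 and 56.0 CPM in wild type, with both mutant libraries low (log2 fold change -1.87 ± 0.36 SE, adjusted p = 0.00119). SERPINH1, a collagen chaperone outside the list, had 41.0 and 46.5 CPM in mutant F3, against 257 and 179 CPM in wild type (log2 fold change -2.34 ± 0.30 SE, adjusted p = 3.6e-06). Its total RNA values were 117 and 124 CPM in mutant F3, against 120.1 and 135 CPM in wild type, with a log2 fold change of -0.08 (adjusted p = 0.626), and the changes in both assays differed by -2.33 ± 0.29 SE (adjusted p = 0.000364). For BAG3 that difference was -1.84 ± 0.32 SE (adjusted p = 0.00532). Of 32 heat shock genes 2 fell without mutant F3 replicate 2, and with the length trend removed 5 of 30.

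Of 38 genes of the integrated stress response tested in RiboLace, which ATF4 induces when translation initiation is restrained, 7 fell and 0 rose. In total RNA, where more members were tested, 23 of 47 rose and 1 fell. Over all 13565 genes tested there, 1582 rose (11.7%) and 1498 fell. The mutant total RNA libraries are 8 h controls and the wild-type ones untreated, so line and handling cannot be told apart there. The members that fell in RiboLace included PHGDH, which starts serine synthesis, and the transfer RNA synthetase genes SARS and WARS. SARS had 46.2 and 31.7 CPM in mutant F3, against 98.6 and 91.1 CPM in wild type, with both mutant libraries low (log2 fold change -1.23 ± 0.30 SE, adjusted p = 0.00801). PHGDH had 94.1 and 86.7 CPM in mutant F3, against 167 and 199 CPM in wild type (adjusted p = 0.0134). The RiboLace changes were lower than the total RNA changes by -1.42 ± 0.28 SE (adjusted p = 0.0157) for SARS and -1.28 ± 0.26 SE (adjusted p = 0.0175) for PHGDH. Of 41 members 0 fell without mutant F3 replicate 2, and with the length trend removed 1 rose and 8 fell of 38.

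**Figure D2:**
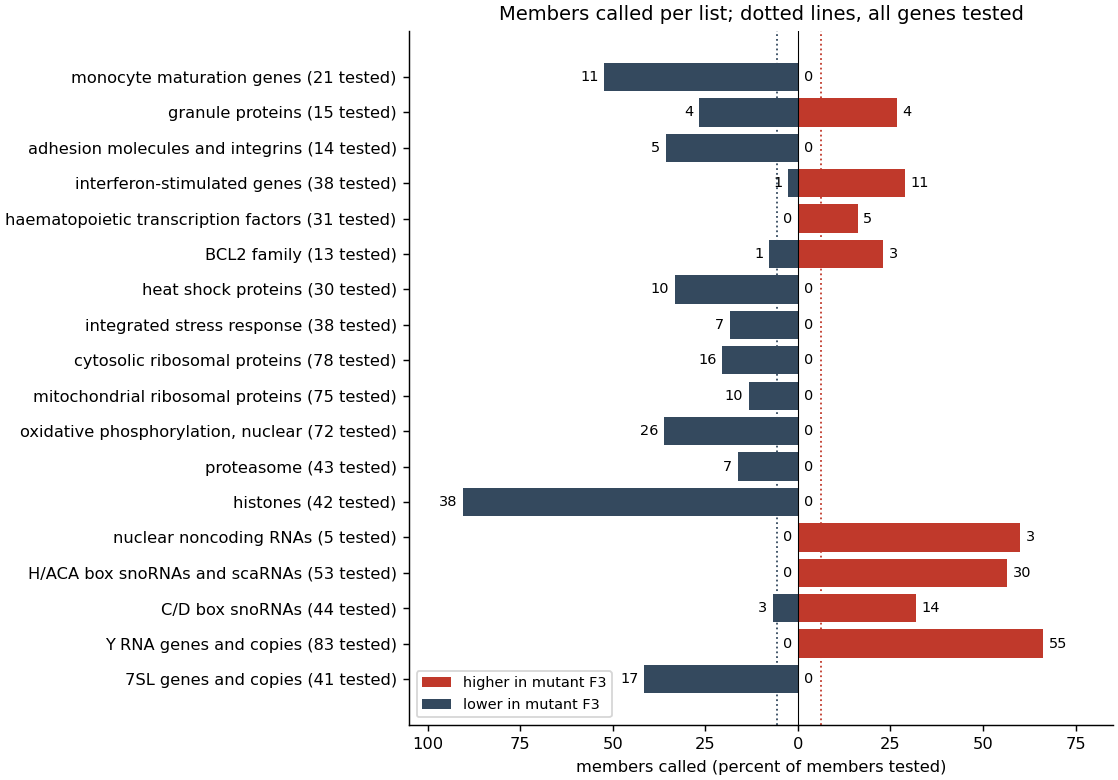
Share of each list's tested members called in RiboLace, as a percent, with members lower in mutant F3 to the left and higher ones to the right; figures at the bar ends are gene counts. Dotted lines mark the shares over all 9805 genes tested, 5.59% lower and 6.18% higher; histones (38 of 42 lower) and Y RNA genes and copies (55 of 83 higher) have the longest bars in their directions.

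Calls of the remaining lists are given as counts, to be read beside 6.18% higher and 5.59% lower over all genes tested. Some lists lay above these shares and others below them. Of 61 mitosis genes tested, 7 fell and 0 rose, among them UBE2C, a ubiquitin-conjugating enzyme of the anaphase (log2 fold change -2.04 ± 0.39 SE, adjusted p = 0.00101), and HMMR, a spindle protein gene (log2 fold change -1.46 ± 0.34 SE, adjusted p = 0.00571). Of 58 DNA replication genes, 3 fell and 0 rose. VEGFA, the vascular growth factor gene, had 129 and 116 CPM in mutant F3, against 35.9 and 43.7 CPM in wild type and was the 1 of 29 glycolysis and hypoxia genes to rise, with 1 falling (log2 fold change 1.65 ± 0.28 SE, adjusted p = 0.000272). TNF fell (log2 fold change -1.32 ± 0.32 SE, adjusted p = 0.00801) and TNFAIP3, an inhibitor of the same pathway, rose (log2 fold change 1.10 ± 0.29 SE, adjusted p = 0.0131) among 15 inflammatory genes tested, of which 1 rose and 2 fell. Both calls were lost when mutant F3 replicate 2 was left out, at -1.20 for TNF (adjusted p = 0.0971) and 1.01 for TNFAIP3 (adjusted p = 0.132), and TNF gave -0.89 with the length trend removed (adjusted p = 0.0766). Of 16 MHC class I and peptide loading genes 0 rose and 2 fell, of 26 immediate early genes 1 rose and 0 fell, of 29 unfolded protein response genes 1 rose and 1 fell, and of 17 nonsense-mediated decay factors 1 rose and 0 fell. Of 66 ribosome biogenesis genes 0 rose and 2 fell, of 34 MYC-responsive genes 1 rose and 1 fell, of 14 genes of the MYC and MAX network 2 rose and 0 fell, of 31 cholesterol synthesis genes 1 rose and 1 fell, and of 27 p53 targets 0 passed. Of 16 stem and progenitor genes 2 rose and 0 fell, of 18 snoRNA host genes 2 rose and 1 fell, of 7 defined genes of 7SL, Y and vault RNAs 2 rose and 1 fell, and of 6 members of the RUNX family and its partners 0 passed.

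RiboLace differences followed the length of the gene's annotated exons. Of 95 protein-coding genes with up to 1000 bases of exon, 1 rose and 52 fell, with a median log2 fold change of -1.03. Of 2161 genes with over 8000 bases, 261 rose and 33 fell, with a median of 0.34. The genes that rose had a median exon length of 9246 bases and those that fell 2848 bases, among 439 and 484 protein-coding genes called. In total RNA the medians of the same length classes ran from -0.15 to 0.07.

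Each library had its own place along this trend. In genes of up to 1000 bases, the median deviation from the 4-library mean of log2(CPM + 1) was -0.32 and -0.74 in mutant F3 replicates 1 and 2, against 0.71 and 0.31 in wild-type replicates 1 and 2. In genes of over 8000 bases it was 0.11 and 0.25 in mutant F3, against -0.21 and -0.12 in wild type. The groups did not overlap, but replicates of 1 group also differed along it, and mutant F3 replicate 2 lay farthest from wild type. Without mutant F3 replicate 2 the medians were -0.89 in the shortest and 0.27 in the longest class. Removing each library's trend left 364 genes higher and 439 lower, and 601 of the 1154 calls were shared with the test that kept it. The trend was fitted over all genes tested, noncoding ones included. All 24 protein-coding genes drawn by name kept their calls with the trend removed. The part of this trend in the list results above was not tested beyond these counts.

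**Figure D3:**
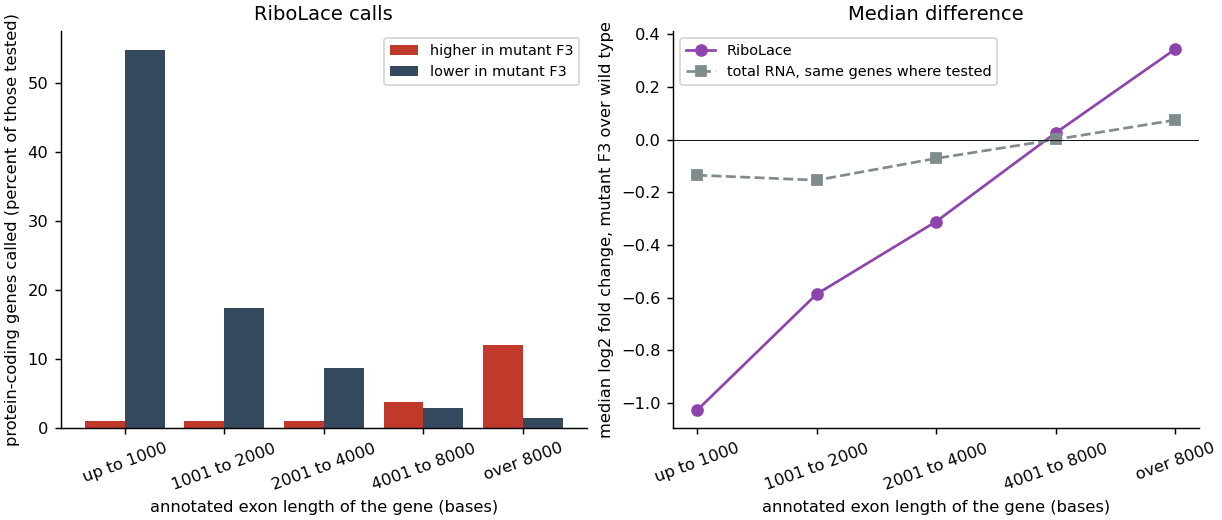
Protein-coding genes by annotated exon length, in bases: percent called higher (red) and lower (dark blue) in mutant F3 RiboLace (left), and the median log2 fold change in RiboLace (circles) and total RNA (squares) (right). In RiboLace the median runs from -1.03 in genes of up to 1000 bases to 0.34 in genes of over 8000 bases, and in total RNA it stays between -0.15 and 0.07.

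Of 934 genes tested that are not annotated as protein-coding, 166 rose and 64 fell, beside 6.18% higher and 5.59% lower over all genes tested. They include 286 processed pseudogenes, of which 3 rose and 22 fell. MALAT1, a long RNA kept in nuclear speckles (chr11:65497688-65506516 in GRCh38), had 2854 and 5343 CPM in mutant F3, against 427 and 560 CPM in wild type. Both mutant libraries were many times above wild type (log2 fold change 3.05 ± 0.40 SE, adjusted p = 5.77e-06), and its total RNA log2 fold change was 0.09 (adjusted p = 0.677), a difference between assays of 2.89 ± 0.35 SE (adjusted p = 0.000364). NEAT1, the scaffold of nuclear paraspeckles, had 80.4 and 139.6 CPM in mutant F3, against 25.7 and 38.9 CPM in wild type (log2 fold change 1.75 ± 0.32 SE, adjusted p = 0.000627), and TUG1 rose by 1.09 on the log2 scale (adjusted p = 0.0155). Of 5 nuclear noncoding RNAs tested 3 rose and 0 fell, and 2 rose without mutant F3 replicate 2, with MALAT1 at 2.53 (adjusted p = 4.1e-05). AL353622.1, a noncoding gene that overlaps ATP5IF1 on the opposite strand, had 22.2 and 76.1 CPM in mutant F3, against 2.14 and 5.70 CPM in wild type (log2 fold change 3.61 ± 0.57 SE, adjusted p = 8.67e-05).

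Y RNAs are short cytoplasmic RNAs bound by the Ro protein, and the genome holds many copies of their genes. Of 83 Y RNA genes and copies tested, 55 rose and 0 fell, with a median of 1.74. Among the copies with the largest rises, Y_RNA ENSG00000251792.1 had 82.9 and 188 CPM in mutant F3, against 13.9 and 14.2 CPM in wild type (log2 fold change 3.20 ± 0.37 SE, adjusted p = 1.42e-06), and Y_RNA ENSG00000202368.1 had 62.4 and 139.6 CPM in mutant F3, against 6.97 and 17.1 CPM in wild type (log2 fold change 3.10 ± 0.41 SE, adjusted p = 5.77e-06). In both copies the groups did not overlap, and mutant F3 replicate 2 was the highest. Copies are not independent, because the treatment of reads that match several of them is not stated. Without mutant F3 replicate 2, 31 of 98 rose and 0 fell, and with the length trend removed 33 rose and 3 fell of 83. The length trend was fitted with these short RNAs among its genes, so removing it also removes part of their own change. VTRNA1-1, a vault RNA of similar size, had 263 and 307 CPM in mutant F3, against 113 and 99.7 CPM in wild type (log2 fold change 1.41 ± 0.26 SE, adjusted p = 0.000749).

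Small nucleolar RNAs guide chemical changes of ribosomal RNA in the nucleolus, the H/ACA class pseudouridylation and the C/D class methylation. Of 53 H/ACA snoRNAs and related scaRNAs tested, 30 rose and 0 fell (median 1.19), and of 44 C/D snoRNAs, 14 rose and 3 fell (median 0.29). Shown are the H/ACA member with the largest rise, SNORA46, another H/ACA member that rose, SNORA14B, and a C/D member that rose, SNORD83A. Sequences are the transcripts of GENCODE release 29 on GRCh38, written 5′ to 3′. Capitals mark the H box (ANANNA near the middle) and the ACA box before the end, or the C box (TGATGA) and the D box (CTGA), searched on the RNA strand. In the letters searched both boxes were found in 65.6% of 241 annotated genes of the H/ACA and scaRNA list and in 63.1% of 314 C/D genes. Members were taken by symbol, and scaRNAs were not sorted by the boxes they carry.
SNORA46 (chr16:58548499-58548633, minus strand): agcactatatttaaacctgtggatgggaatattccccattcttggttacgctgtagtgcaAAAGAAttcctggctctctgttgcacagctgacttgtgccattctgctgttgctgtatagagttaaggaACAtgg
SNORA14B (chr1:235127803-235127937, minus strand): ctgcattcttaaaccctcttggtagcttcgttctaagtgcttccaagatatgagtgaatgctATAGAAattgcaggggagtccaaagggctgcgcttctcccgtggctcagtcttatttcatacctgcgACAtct
SNORD83A (chr22:39315213-39315307, minus strand): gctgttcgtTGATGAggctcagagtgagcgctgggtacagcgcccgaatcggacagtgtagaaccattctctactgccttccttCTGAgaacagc

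SNORA46 had 53.9 and 376 CPM in mutant F3, against 22.5 and 24.7 CPM in wild type, with mutant F3 replicate 2 far above replicate 1 (log2 fold change 3.10 ± 0.48 SE, adjusted p = 5.15e-05), and its call was lost without that library. SNORA14B had 421 and 1005 CPM in mutant F3, against 169.9 and 139 CPM in wild type, with both mutant libraries above wild type (log2 fold change 2.19 ± 0.33 SE, adjusted p = 4.88e-05). SNORD83A, within the gene of ribosomal protein RPL3, had 683 and 935 CPM in mutant F3, against 321 and 254 CPM in wild type (log2 fold change 1.48 ± 0.30 SE, adjusted p = 0.00155), without overlap of the groups, and its call was lost as well (1.24, adjusted p = 0.0779). The C/D class changed direction with the length trend removed, at 3 higher and 11 lower (median -0.32), while 13 of the 30 H/ACA rises were still called and 0 fell (median 0.83). At these short lengths the fitted trend holds part of the small RNAs' own change. That fit therefore cannot separate their change from an effect of length. Leaving out that library, 12 of 55 H/ACA genes rose and 0 fell, and 7 of 46 C/D genes rose and 3 fell.

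7SL RNA is the RNA part of the signal recognition particle, which brings ribosomes that make secreted proteins to the endoplasmic reticulum. Of 41 7SL genes and copies tested, 17 fell and 0 rose, with a median of -1.15 and 10 above 0. As with Y RNA, copies are not independent, because the treatment of reads that match several of them is not stated. RN7SL2, a functional gene, had 492 and 594 CPM in mutant F3, against 1601 and 927 CPM in wild type, with both mutant libraries low (log2 fold change -1.22 ± 0.33 SE, adjusted p = 0.0139), and its call was lost without mutant F3 replicate 2 (-1.37, adjusted p = 0.148). The copy RN7SL125P had 47.0 and 50.8 CPM in mutant F3, against 286 and 359.8 CPM in wild type (log2 fold change -2.73 ± 0.30 SE, adjusted p = 5.8e-07), and RN7SL738P, RN7SL141P and RN7SL127P fell by 2.75, 2.81 and 2.44 on the log2 scale. RN7SL738P overlaps the protein-coding gene UBXN7, RN7SL141P overlaps FNDC3B and RN7SL127P overlaps BMP2K, all with reads. With the length trend removed 18 fell and 0 rose, and without mutant F3 replicate 2, 11 of 48 fell and 0 rose.

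As shares of all counts, Y RNA genes and copies took 2.77% and 3.03% in mutant F3, against 1.38% and 1.98% in wild type. The snoRNAs and scaRNAs took 1.83% and 2.23%, against 0.856% and 0.913%. MALAT1 took 0.280% and 0.543%, against 0.0392% and 0.0560%. In these 3 classes both mutant libraries were above both wild-type libraries. The 7SL class took 0.19% and 0.169%, against 0.394% and 0.358%, and cytosolic ribosomal protein genes took 3.02% and 2.69%, against 4.51% and 4.26%, both lower in mutant F3 without overlap. Protein-coding genes as a whole overlapped, at 74.8% and 77.1% in mutant F3 and 74.5% and 77.9% in wild type, and MIR6087 alone took 9.0% and 4.64%, against 11.4% and 7.84%. Of counts without MIR6087, protein-coding genes took 82.2% and 80.8% in mutant F3 and 84.1% and 84.5% in wild type, which did not overlap. An exact two-sided permutation test of 2 against 2 libraries cannot give a p below 0.33, so shares are described without a test. The part of nuclear and small RNA in the gene results was not tested.

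**Figure D4:**
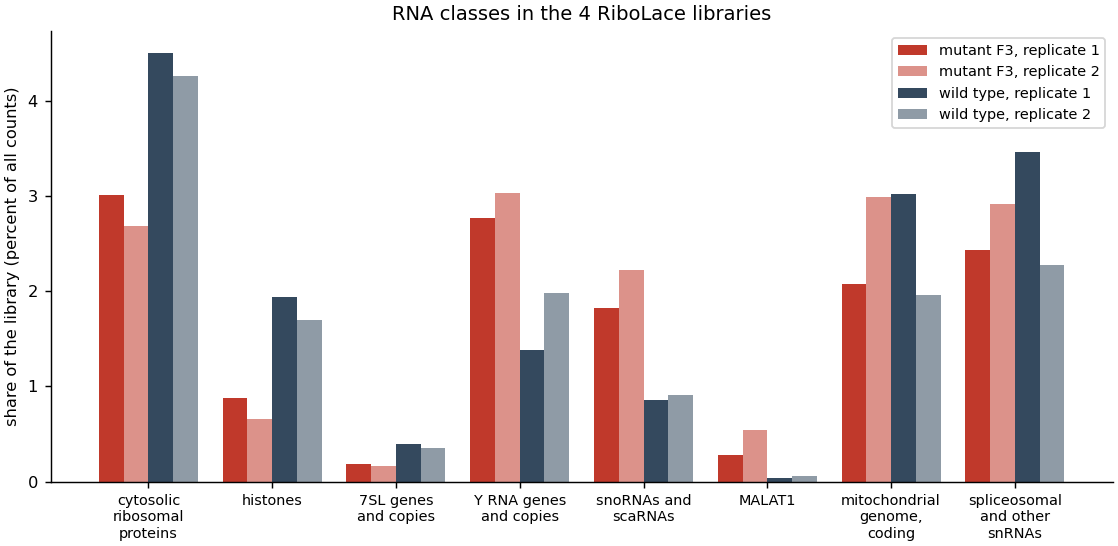
Share of all counts, in percent, of 8 RNA classes in the 4 RiboLace libraries, 1 bar per library, with mutant F3 in reds and wild type in blues. Mutant F3 bars are higher for Y RNAs (2.77% and 3.03%), snoRNAs and MALAT1, and lower for ribosomal proteins, histones and 7SL; the mitochondrial and spliceosomal classes overlap.

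Total RNA of the same lines shows how far each RiboLace difference was shared by the cells' RNA as a whole; the mutant total RNA libraries are 8 h controls and the wild-type ones are untreated, so line and handling cannot be told apart there. Of all genes tested in total RNA 3080 passed. Of the 606 genes higher in mutant F3 RiboLace, 458 were tested in total RNA, where 182 rose, 11 fell and 265 did not pass. Of the 548 lower genes, 484 were tested, where 184 fell, 18 rose and 282 did not pass. The test of the RiboLace change against the total RNA change called 229 of 15338 genes (1.49%). Over all genes it called 0.482% higher and 1.01% lower. Among the RiboLace rises it called 62 further up and 2 further down than in total RNA. Among the RiboLace falls it called 107 further down and 0 further up. These genes were chosen by their RiboLace values, which also enter this test, so a difference in the same direction is favoured in advance.

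For several named genes both assays gave like values. ELANE rose by 2.96 (adjusted p = 4.36e-16) in total RNA, GATA2 by 1.85 (adjusted p = 8.23e-11) and KCNH2 by 2.39 (adjusted p = 4.77e-15), and S100A9 had a log2 fold change of -2.57 (adjusted p = 2.96e-14). None of these 4 was called apart from its RiboLace change, with differences of -0.47 ± 0.33 SE (adjusted p = 0.515), 0.20 ± 0.26 SE (adjusted p = 0.774), 0.27 ± 0.27 SE (adjusted p = 0.676) and 0.01 ± 0.39 SE (adjusted p = 1). Of the 12 largest protein-coding falls 9 also fell in total RNA and 3 did not pass there. Of the 12 largest rises 9 also rose, INO80C fell, CSNK1G1 did not pass and KIF5C was not tested.

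LYZ was called apart. In total RNA it had 292 and 299 CPM in mutant F3, against 334 and 361 CPM in wild type, close to each other beside the RiboLace gap, with a log2 fold change of -0.23 (adjusted p = 0.0881). Its RiboLace change was lower than its total RNA change by a log2 difference of -2.53 ± 0.35 SE (adjusted p = 0.000745). CD53 differed by -2.05 ± 0.35 SE (adjusted p = 0.00534), ORM1 by -1.94 ± 0.33 SE (adjusted p = 0.00532) and LST1 by -1.56 ± 0.39 SE (adjusted p = 0.045), each lower in RiboLace than in total RNA. On the other side, CSNK1G1 differed by 1.69 ± 0.29 SE (adjusted p = 0.00577) and PSD3 by 1.73 ± 0.36 SE (adjusted p = 0.0218). Each gene has a common spread for both assays in that test, which can make p-values too small for genes that vary more in RiboLace.

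**Figure D5:**
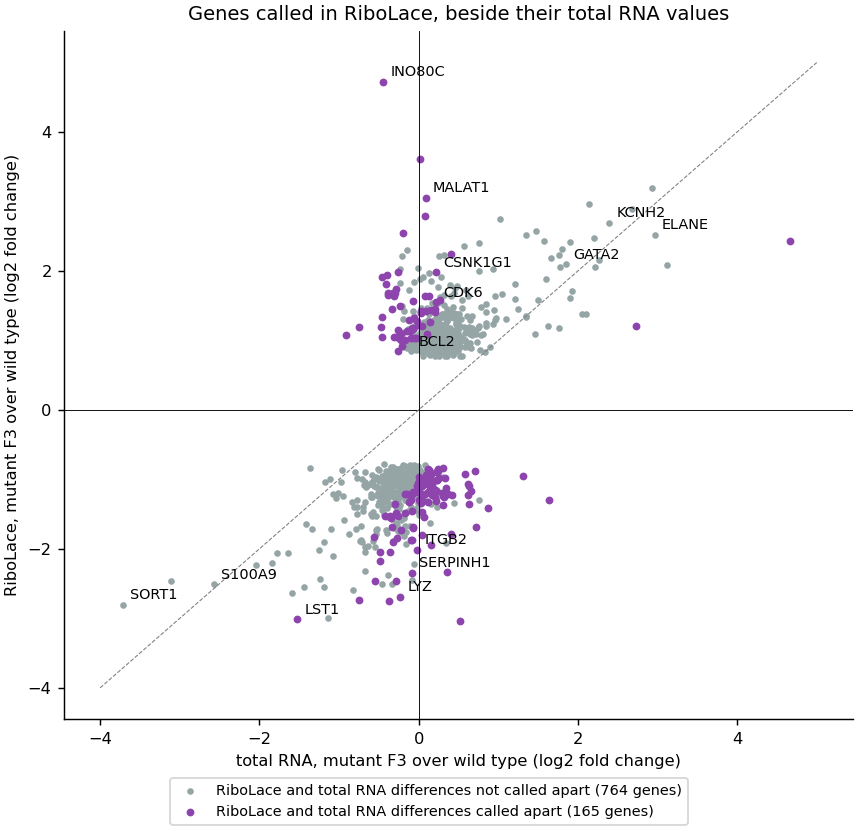
Log2 fold change of mutant F3 over wild type in RiboLace (vertical) against total RNA (horizontal), for 929 genes called in RiboLace and tested in both, with 13 genes of at most 3 reads in a RiboLace group left out. Purple points are the 165 genes whose changes differ between the assays by test, grey points the other 764, and the dashed line marks equal changes; ELANE, GATA2 and KCNH2 lie near the line, and LYZ, ITGB2 and SERPINH1 lie low at a total RNA value near 0.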

How the data were processed

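Raw read counts per gene, 1 table of 14 libraries, were used as the authors deposited them. The tools STAR 2.6.0b and DESeq2 and the build GRCh38 are named, per the submitters' processing notes, without their roles. How RiboLace libraries were made, whether ribosomal RNA was removed, which program counted reads and whether it used strand is not given in the sources used here. Of 58037 gene IDs, 57433 matched GENCODE release 29.

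Counts of the 4 RiboLace libraries were tested with edgeR 4.0.16 in R 4.3.3 (filterByExpr, TMM, quasi-likelihood F-test, Benjamini-Hochberg over all genes tested, called at an adjusted p under 0.05). Total RNA had its own fit of 4 libraries, and the difference between assays was the interaction in all 8. The SE is approximate, the size of the log2 fold change over the root of F. DESeq2 1.42.0, limma 3.58.1, other scalings, filters and each library left out were alternatives. Scripts were tested on simulated data.

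Genes were named by rule: the 12 largest protein-coding rises and falls and up to 4 noncoding ones per direction among called genes without overlap and with a mean CPM of at least 20, fixed genes, and up to 4 members of each list by smallest p. The members, the rule and the 44 lists, written from general knowledge, were chosen with earlier results of these data known. Genes with 0 reads in a group were set against a floor of 3 reads, and genes with 1 to 3 reads have an exact interval. Some genes and sequences are not reported here.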

Additional observations from a re-analysis of the deposited data

Results flagged for a closer look

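For 35 named genes the change in RiboLace differed from the change in total RNA by the test of that difference (edgeR, adjusted p under 0.05), with 12 differences above 0 and 23 below. Values are the log2 fold change of mutant F3 over wild type in RiboLace minus that in total RNA, so a value above 0 means a RiboLace change further up. Another 8 named genes had at most 3 reads in a group and are left out. Genes were named largely by their RiboLace values, which also enter this test, and some by this difference itself.

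Among myeloid and leukocyte products the differences were -2.53 for LYZ, -2.05 for CD53, -1.56 for LST1, -1.94 for ORM1, -2.06 for ITGB2 and -1.53 for TNFAIP2. Genes of antigen presentation had -1.85 for HLA-DRA, -1.28 for CD74 and -1.17 for HLA-B. Chaperone and stress genes had -2.33 for SERPINH1, -1.84 for BAG3, -1.38 for HSPB1, -1.42 for SARS, -1.28 for PHGDH, -1 for WARS and -1.32 for GADD45B. Genes of the ribosome and its making had -1.43 for RPL32, -1.13 for RPS13 and -1.08 for GNL2, and genes of mitosis had -1.62 for UBE2C and -1.47 for HMMR.

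Above 0, protein-coding genes had 4.89 for INO80C, 4.29 for KIF5C, 1.73 for PSD3, 1.69 for CSNK1G1 and 1.26 for CDK6. Noncoding genes had 3.52 for AL353622.1, 2.89 for MALAT1, 1.95 for NEAT1, 1.24 for TUG1, 1.43 for SNHG14, 2.02 for SNHG3 and 2.15 for SNORA73B. On the other side of 0 were -1.30 for SNHG1 and -1.72 for RN7SL2. SNORA73B lies within its host gene SNHG3, and how reads that match both were counted is not known.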

How the results depend on the processing

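In RiboLace, 606 genes were higher and 548 lower in mutant F3. Without the filter on low counts 396 were higher, with DESeq2 223 were higher and 192 lower, and against a change of at least 1.5-fold 134 were higher and 98 lower. With each library's exon length trend removed 364 were higher, and 336 with protein-coding genes alone (both chosen after seeing the data). Leaving out each library in turn gave 141 to 841 higher and 106 to 970 lower. RLE size factors, library totals, limma-voom and a mean count of at least 50 moved neither count by over 1.5 times. In total RNA, leaving out each library gave 729 to 2021 higher and 501 to 1791 lower. For the RiboLace change minus the total RNA change (74 higher, 155 lower), the counts were 176 and 351 without the filter, 264 and 370 with DESeq2, 79 lower with library totals, 251 lower with protein-coding genes alone, and 10 to 501 and 11 to 996 with each library left out. The cause was not tested.

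Deviations of same-numbered libraries had a correlation of -0.061 across genes, which cannot settle whether these libraries were prepared as pairs. The labels share only replicate numbers. A fit with the replicate number as a block called 850 higher and 795 lower. Of 127 named genes called, DESeq2 kept 77 of the 103 it could compare, the length-trend fit kept 91, and the fit without mutant F3 replicate 2 kept 57. Of list members with a DESeq2 adjusted p, it called 30 of 43 Y RNA, 12 of 26 H/ACA, 8 of 27 C/D and 2 of 23 transcription factor genes higher, and 6 of 25 heat shock, 3 of 33 stress response, 3 of 13 adhesion and 2 of 44 mitosis genes lower. The log2 fold change of MYC turned to -0.030 without the filter and -0.010 after thinning, and ran from -0.075 to 0.18 with each library left out. That of CEBPA turned to 0.058 and 0.083 with the length trend removed, over all genes and over protein-coding genes. Without MIR6087, mutant minus wild-type shares were -2.80 percentage points for protein-coding genes, -0.224 for 7SL and -1.79 for ribosomal proteins. Depth limits genes with few reads: 3 reads over a group are 1.83 CPM in mutant F3 and 1.03 CPM in wild type.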
